A study of Mus musculus with 9 samples.

Results

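The 10 genes described here are 6 ligands of the epidermal growth factor (EGF) family (Areg, Ereg, Hbegf, Tgfa, Btc and Epgn), 3 receptors of the ErbB family (Egfr, Erbb2 and Erbb3) and Errfi1, an inhibitor of these receptors. They were taken by name from a table of 24421 genes. Of them, 9 passed the filter on low counts, as did 12575 genes in all, and Ereg did not. The 9 RNA-seq libraries came from 4T1, a triple-negative mammary carcinoma line of the mouse, for which the labels give no genetic change. The cells were grown for 5 days in medium with 10% serum, in 3 conditions with 3 libraries each: 3D spheroids on a soft agar base with no palmitate added, such 3D spheroids given 75 µM palmitate, and 2D monolayers given the same 75 µM. A 2D culture without added palmitate was not analysed here, so the comparison of 3D with 2D was made at 75 µM palmitate alone, and the effect of palmitate was compared in 3D alone.

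EGF family ligands are made as membrane-bound precursors that proteases release from the cell surface. A released ligand binds EGFR or another ErbB receptor, and the receptors pair and phosphorylate each other, which signals through the RAS-ERK and PI3K-AKT pathways. ERBB2 has no known ligand and acts as the partner of the others, and ERBB3 has little kinase activity of its own and depends on a partner. In the mammary gland amphiregulin, the product of Areg, is a mediator of ductal growth, and ERBB2 (HER2) is the receptor amplified in a class of breast cancers.

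Of the 5 ligand genes tested 4 were higher in 3D than in 2D, in a comparison that called 34.5% of all tested genes higher in 3D. Areg, Tgfa, Btc and Epgn had fitted folds of 3.56, 4.0, 6.63 and 3.08, whereas Hbegf had a log2 difference of -0.02 (SE 0.0573). Among the receptors Erbb3 was 2.16-fold higher in 3D, Erbb2 was 1.22-fold higher, and Egfr was not called. Once trends with GC content and length of the transcripts were removed, Erbb2 was no longer called and Egfr was called lower. Errfi1 was 2.89-fold higher. With palmitate in 3D, 0 of the 9 members tested passed an adjusted p of 0.05, where 2.19% of all tested genes did. Nrg1, a ligand of ERBB3 outside the members, rose 1.73-fold.

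The deposited values were raw counts per gene, with 6595514 to 31177756 counts in a library. The smallest library was replicate 3 of the 3D cultures with palmitate. Rn45s, a ribosomal RNA precursor, took 1.77% to 5.38% of the counts. Libraries of the same group differed by more than sampling noise, with a chi-square value per gene of 3.90 to 19.7 over the 9 pairs. The highest were the pairs of 3D with palmitate, at 16.4, 19.1 and 19.7, against at most 9.30 in the other groups. The libraries of 3D with palmitate enter both comparisons below. Nothing in the labels says that the replicates were separate cultures, so the p-values below measure the spread between these samples, which may be technical. The epithelial genes Epcam, Krt8, Krt18, Cdh1 and Krt14 were detected in all groups. In 3D without palmitate, 3D with palmitate and 2D, Epcam was at means of 823.1, 707.2 and 263.1 CPM (counts scaled to a common library size by TMM), Krt8 at 1400, 1476 and 980.3, Krt18 at 1430, 1510 and 1279, Cdh1 at 635.7, 586.4 and 538.1, and Krt14 at 185.3, 128.5 and 139.1. By their means Epcam, Krt8, Krt18 and Cdh1 were lowest in 2D, as were all members but Hbegf and Ereg. The part of these epithelial genes in the differences of the members was not tested. Krt5, a basal keratin, had at most 1 count in a library. The 8 markers of leukocytes, endothelium and adipocytes had at most 11 counts each, their summed level lay between 0.356 and 0.868 CPM in the 9 libraries, and Cd3e and Adgre1 were at 0.

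All 10 genes are protein-coding, and positions are given in the GRCm38 mouse genome. Epgn (5:91027464-91035215), Ereg (5:91074622-91093646), Areg (5:91139599-91148432) and Btc (5:91357261-91402994) form a cluster on chromosome 5. The gaps between neighbours are 39.4, 46.0 and 208.8 kb, with 0 protein-coding genes between them. Epgn, Ereg and Areg are on the plus strand and Btc is on the minus strand. Within the cluster Epgn, Areg and Btc were higher in 3D than in 2D, and Ereg was near 0 throughout. Tgfa is at 6:86195223-86275719 on the plus strand. Egfr (11:16752203-16918158) and Erbb2 (11:98412470-98437716) are both on the plus strand of chromosome 11 but 81494.3 kb apart. Erbb3 is at 10:128567523-128589652 on the minus strand and Errfi1 at 4:150853919-150868892 on the plus strand. Ereg, Tgfa, Egfr and Errfi1 each overlap a gene on the opposite strand (Gm19610, Gm43917, Egfros and 1700045H11Rik), and Erbb2 overlaps Mien1 and Gm25048 there. The strand setting of the counting is not given in the sources used here, so reads of these pairs may not have been separated.

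The promoters of Areg, Errfi1 and Tgfa are shown because all 3 genes were higher in 3D, and because the first 2 contain the same pair of motifs and the third does not. Each is the 250 bases before a RefSeq start site in GRCm38.p6, on the plus strand, and the second start site of Errfi1 is shown. Capitals mark the cAMP response element (CRE) TGACGTCA, searched on both strands, and the TATA box TATAAA, searched on the gene's strand.
Areg, 5:91139349-91139598: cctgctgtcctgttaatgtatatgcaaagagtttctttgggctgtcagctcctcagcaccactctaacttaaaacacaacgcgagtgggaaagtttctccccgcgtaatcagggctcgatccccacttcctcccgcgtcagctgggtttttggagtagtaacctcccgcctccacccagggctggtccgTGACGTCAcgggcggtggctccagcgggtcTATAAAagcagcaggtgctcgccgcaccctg
Errfi1, 4:150854820-150855069: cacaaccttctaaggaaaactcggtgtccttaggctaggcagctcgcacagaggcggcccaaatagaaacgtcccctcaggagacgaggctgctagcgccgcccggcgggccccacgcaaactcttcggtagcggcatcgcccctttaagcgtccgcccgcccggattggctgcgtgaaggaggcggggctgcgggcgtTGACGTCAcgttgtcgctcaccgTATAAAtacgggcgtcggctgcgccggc
Tgfa, 6:86194972-86195221: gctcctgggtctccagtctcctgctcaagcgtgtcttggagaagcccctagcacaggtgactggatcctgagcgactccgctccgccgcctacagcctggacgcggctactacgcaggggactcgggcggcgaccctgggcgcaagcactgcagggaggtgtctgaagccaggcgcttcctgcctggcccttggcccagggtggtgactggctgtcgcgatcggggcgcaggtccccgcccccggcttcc
In Areg the CRE lies at bases 61 to 54 before the start site and the TATA box at 31 to 26. In Errfi1 they lie at 51 to 44 and 28 to 23.

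Promoter windows were matched for 7 of the 10 members, 8 windows in all. There was none for Ereg, Erbb3 or Hbegf, the tested ligand that was not called in 3D against 2D. Of the 2 windows of Errfi1, the other one, at 4:150853546-150853795, held none of the motifs. The CRE was found in 2 members, Areg and Errfi1, against 1.55% of 32851 promoter windows of the genome and 1.77% of 27025 genes. A TATA box (TATAAA or TATATA) was found in 3 members, Areg, Errfi1 and Epgn, against 11.5% of windows and 13.4% of genes. That of Epgn lay at bases 86 to 81, farther from the start site than those of Areg and Errfi1. The AP-1 motif (TGAGTCA or TGACTCA, both strands) was found in 0 of the 7 members, against 4.46% of windows and 5.16% of genes. These are matches of letters in a short window and not binding sites.

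Levels were compared between genes as CPM per kb of the longest protein-coding transcript, which ran from 1215 bases for Areg to 10208 for Egfr. On this scale Areg was the highest of the 10 in every group, at 189 in 3D without palmitate, 191 in 3D with palmitate and 53.5 in 2D. The order below it in 3D without palmitate was Errfi1 (118), Tgfa (82.0), Hbegf (45.8), Erbb2 (17.7), Btc (16.4), Erbb3 (6.97), Epgn (1.07), Egfr (0.63) and Ereg (0), and no 2 neighbours overlapped between libraries. In 3D with palmitate the values of Btc (17.3) and Erbb2 (15.5) overlapped. In 2D Hbegf took the second place at 49.7, ahead of Errfi1 (44.1) and Tgfa (17.6). Erbb3 and Btc, both at 2.55, overlapped there, and so did Egfr (0.466) and Epgn (0.361). Without division by length Areg was in the third place in both 3D groups and the fourth in 2D, so its lead rested on its short transcript.

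**Figure D1:**
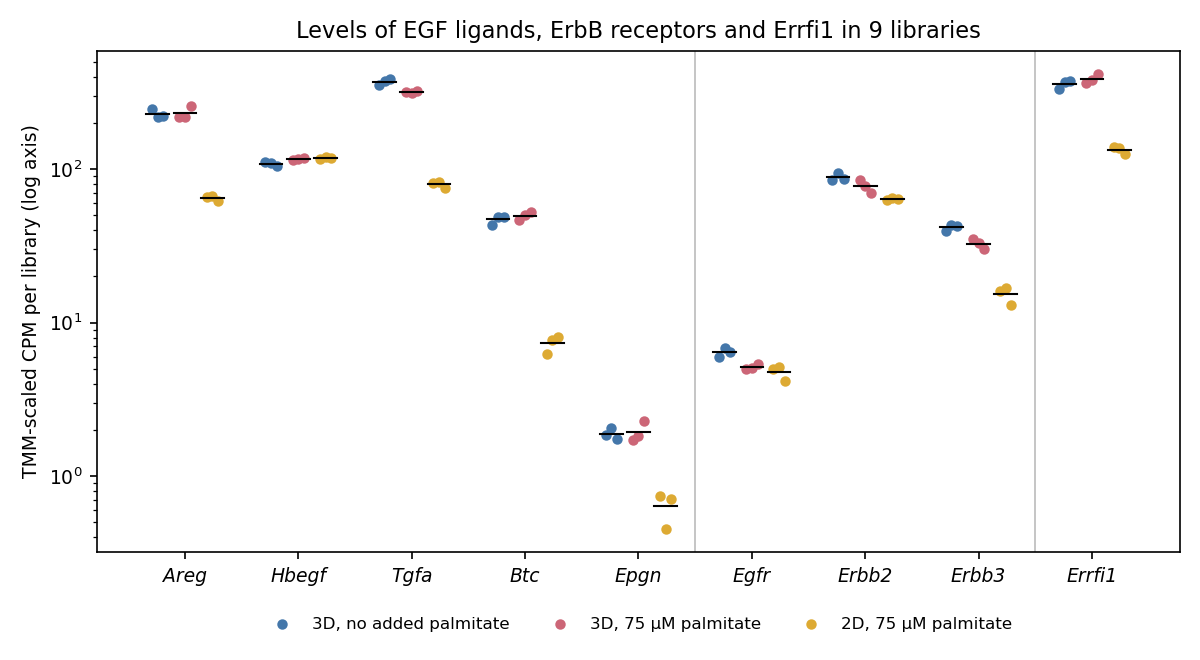
TMM-scaled CPM (log axis) of 9 members in each of the 9 libraries, coloured by condition, with a bar at the mean of 3 libraries. Areg, Tgfa, Btc, Epgn, Erbb2, Erbb3 and Errfi1 lie lower in 2D than in both 3D groups, whereas Hbegf lies between 105.0 and 120.1 CPM in all libraries. Ereg, at 0 to 2 counts a library, is not drawn.

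The first comparison, 3D against 2D with palmitate in both, addressed how expression differed between the culture formats as grown here. At an adjusted p under 0.05, 7 of the 9 members tested were higher in 3D and 0 were lower. In the same comparison 68.3% of all tested genes were called, 34.5% higher and 33.9% lower. The groups did not overlap for the 7 members called, against 69.4% of all genes, so that calls and separated groups were common here. The median log2 fold change was 1.53 over the members and 0.01 over all genes.

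Among the ligands, 4 of 5 tested were higher in 3D, with a median log2 fold change of 1.83. Areg was measured at 219.9, 219.2 and 257.6 CPM in 3D with palmitate and at 66.0, 66.69 and 62.42 CPM in 2D. The lowest 3D library was thus far above the highest 2D library, and the 3D cultures without palmitate, at 246.7, 219.9 and 222.9 CPM, lay with the other 3D cultures. The log2 fold change of Areg was 1.83 (SE 0.0778, 95% interval 1.67 to 2.0, adjusted p = 6.8e-11, edgeR).

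Tgfa, which encodes transforming growth factor alpha, another ligand of EGFR, was at 320.3, 312.6 and 325.0 CPM in 3D with palmitate and at 80.89, 83.06 and 75.66 CPM in 2D. Its log2 fold change was 2.0 (SE 0.0638, interval 1.86 to 2.14, adjusted p = 3.21e-12). The groups were far apart, and the spread within each was small, with SDs of 6.241 and 3.806 CPM.

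Btc encodes betacellulin, a ligand of EGFR and ERBB4. It had the highest fold of the members: 46.59, 50.67 and 52.37 CPM in 3D with palmitate against 6.286, 7.656 and 8.02 CPM in 2D, a log2 fold change of 2.73 (SE 0.0964, interval 2.52 to 2.94, adjusted p = 9e-12). Epgn, the gene of epigen, a low-affinity EGFR ligand, was also higher but at a low level. Its values were 1.73, 1.823 and 2.297 CPM in 3D and 0.7443, 0.4485 and 0.7129 CPM in 2D, from 9 to 47 counts in a library over all groups. The log2 fold change of 1.62 therefore had a wider interval, 1.05 to 2.19 (SE 0.266, adjusted p = 7.83e-05).

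Hbegf, the gene of heparin-binding EGF-like growth factor, was the tested ligand that was not called. It was at 115.3, 115.8 and 118.8 CPM in 3D with palmitate and at 115.8, 120.1 and 118.3 CPM in 2D, and the groups overlapped. The interval of its log2 difference was -0.14 to 0.1 (adjusted p = 0.775). Ereg, the gene of epiregulin, had 2, 0 and 0 counts in 3D with palmitate, 1, 2 and 0 in 2D and 0, 0 and 0 in 3D without palmitate. Every one of these lies under 3 counts, the limit that a count of 0 allows, which is 0.0961 to 0.459 CPM depending on the library and covers counting error only, so no fold was computed.

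The proportions of the ligands differed between the formats. Per kb of transcript, the ligand sum was 334 ± 8.77 CPM per kb in 3D without palmitate, 329 ± 20.9 in 3D with palmitate and 124 ± 2.81 in 2D (mean ± SD, n = 3 libraries here and below). Hbegf made up 13.7% ± 0.355 and 14.9% ± 0.683 of that sum in the 3D groups but 40.2% ± 0.876 in 2D. Areg made up 56.5% ± 2.11, 58.0% ± 1.75 and 43.2% ± 0.772 in the same order. The share of Tgfa was 24.6% ± 1.64, 21.5% ± 1.02 and 14.2% ± 0.387, and that of Btc 4.9% ± 0.444, 5.27% ± 0.251 and 2.06% ± 0.27. In 2D Areg and Hbegf were thus close to equal in share, whereas in 3D Areg stood well above every other ligand. These shares are of RNA, depend on the transcript chosen for each length, and were not tested.

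**Figure D2:**
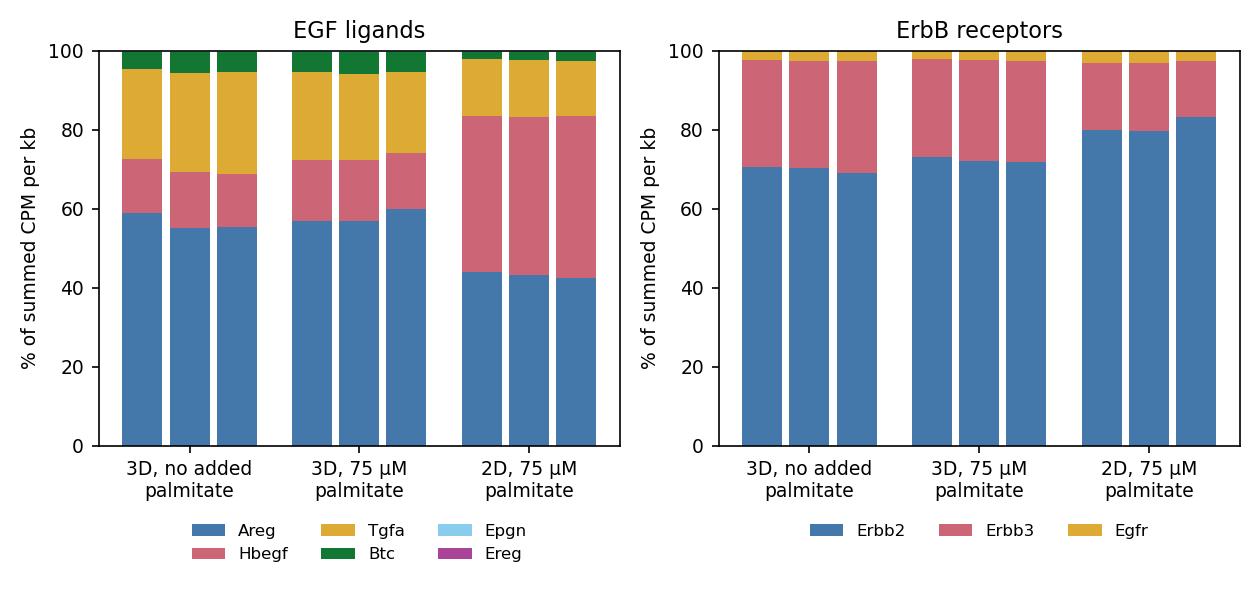
Each bar is 1 library, and its colours give the percentage of the summed CPM per kb held by each ligand (left) or receptor (right). The Hbegf band is wide in the 2D libraries, at a mean of 40.2% against 14.9% in 3D with palmitate, and the Erbb3 band is narrow there, at 16.1% against 25.3%.

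The summed level of the receptors per kb was 25.3 ± 1.22, 21.5 ± 1.92 and 15.8 ± 0.484 CPM per kb in 3D without palmitate, 3D with palmitate and 2D, below that of the ligands. Erbb3, whose product carries many docking sites for PI3K, was at 35.15, 32.97 and 30.02 CPM in 3D with palmitate and at 16.13, 16.91 and 13.01 CPM in 2D, a log2 fold change of 1.11 (SE 0.101, interval 0.89 to 1.32, adjusted p = 2.09e-07). The groups did not overlap, and both lay under the 3D cultures without palmitate, which ranged from 39.59 to 43.42 CPM. Erbb2 was at 85.57, 77.79 and 70.44 CPM in 3D with palmitate and at 63.1, 65.38 and 64.3 CPM in 2D. Its log2 fold change of 0.29 (SE 0.0737, interval 0.13 to 0.45, adjusted p = 0.00287) was called, but it was 0.01 (adjusted p = 0.904) once the dependence of every library on GC content and length of the transcripts was taken out by offsets. Over the 15 alternatives its adjusted p ran from 0.000128 to 0.904, and the call was also lost at a minimum absolute log2 fold change of 0.5.

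Egfr, the receptor that binds all 6 ligands, was at 4.968, 5.09 and 5.36 CPM in 3D with palmitate and at 4.962, 5.125 and 4.188 CPM in 2D, from 35 to 160 counts in a library over all groups. The groups overlapped, and the log2 difference was 0.09 (interval -0.19 to 0.38, adjusted p = 0.562). With the GC and length trend removed it was -0.33 (adjusted p = 0.0266), a call in the other direction, while over all 15 alternatives the adjusted p ran from 0.0266 to 0.987. The same step moved the median of all genes from 0.01 to -0.08. The direction of Egfr and the call of Erbb2 between the formats thus depended on this step.

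Per kb, Erbb2 held 70.0% ± 0.768 of the receptor sum in 3D without palmitate, 72.3% ± 0.578 in 3D with palmitate and 81.0% ± 2.01 in 2D. Erbb3 held 27.5% ± 0.737, 25.3% ± 0.304 and 16.1% ± 1.77, and Egfr at most 3.09% in any library. The level of Erbb2 per kb was 28.2, 31.0 and 27.7 times that of Egfr in the 3 groups. The sum of the ligands was 13.2 ± 0.944, 15.5 ± 2.33 and 7.82 ± 0.0622 times the sum of the receptors, with 18.1 in the smallest library, so the lead of ligand over receptor transcripts was larger in 3D. None of these ratios was tested.

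Errfi1 encodes MIG6, which binds the kinase domain of active ErbB receptors and shuts them off, and whose own transcription EGFR signalling induces. It was at 365.0, 380.3 and 420.7 CPM in 3D with palmitate and at 139.5, 138.4 and 124.9 CPM in 2D. The groups were widely separated, and the 3D cultures without palmitate, at 331.2 to 373.8 CPM, were again close to those with it. The log2 fold change was 1.53 (SE 0.0755, interval 1.37 to 1.69, adjusted p = 3.32e-10). Here as for every member, less RNA per cell and fewer cells that express the gene cannot be told apart in bulk samples.

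**Figure D3:**
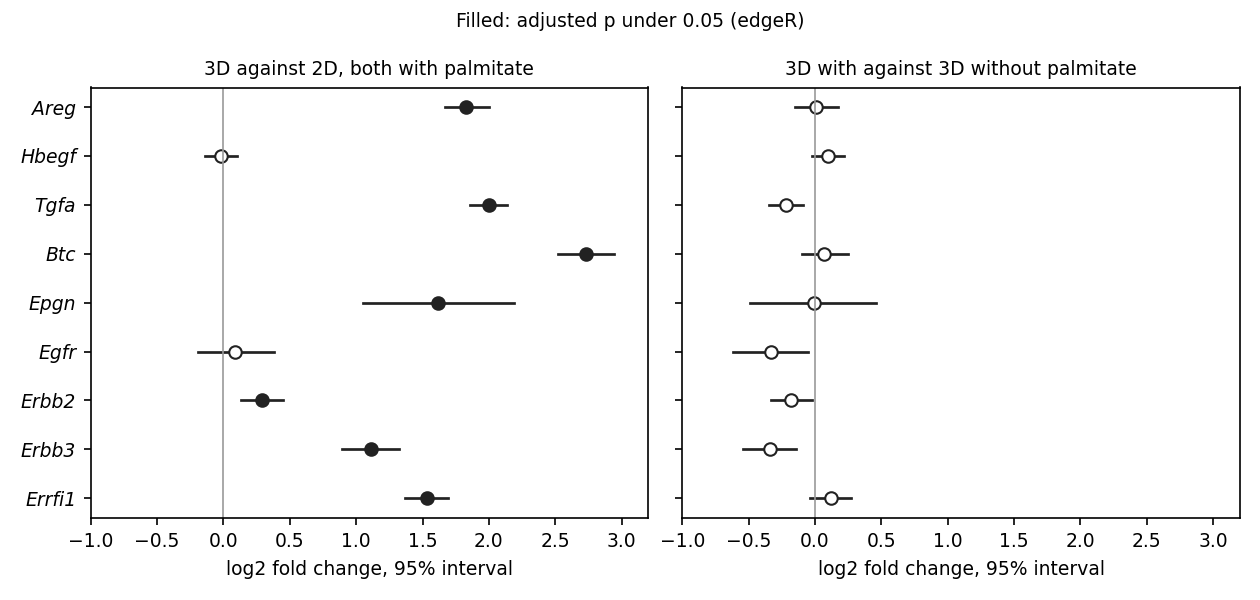
Points are log2 fold changes of 9 members with 95% intervals, 3D against 2D on the left and palmitate against none in 3D on the right, filled where the adjusted p was under 0.05. On the left 7 points are filled, from 0.29 for Erbb2 to 2.73 for Btc, and on the right 0 are.

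In the second comparison, 3D cultures with and without added palmitate were set against each other, to ask what the fatty acid changes in spheroids. Both comparisons share the 3D libraries with palmitate. Of all genes 2.19% were called, 1.38% higher and 0.811% lower. That is 173 genes higher and 102 lower, but 106 higher and 121 lower when libraries were scaled by size only. Of the 9 members 0 were called by edgeR, and 4 had an unadjusted p under 0.05 (Tgfa, Egfr, Erbb2 and Erbb3, all with a negative log2 fold change). The share of all genes at that unadjusted limit was not computed, so the count of members there has no background to be read against. DESeq2 called 2 of the 9, Tgfa and Erbb3, and 395 of 11460 genes in all. The groups did not overlap for 5 of the 9 members, against 18.6% of all genes. The median log2 fold change was -0.01 over the members and 0.01 over all genes.

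All 3 receptors had lower values with palmitate, none of them past the adjusted threshold. Erbb3 was at 39.59, 43.42 and 42.8 CPM without and at 35.15, 32.97 and 30.02 CPM with palmitate, a log2 difference of -0.34 (SE 0.0939, interval -0.54 to -0.14, adjusted p = 0.0791). Erbb2 was at 85.74, 94.14 and 86.89 CPM without and at 85.57, 77.79 and 70.44 CPM with palmitate, where replicate 1 came within 1 CPM of the untreated libraries. Its log2 difference was -0.18 (SE 0.073, interval -0.33 to -0.02, adjusted p = 0.229). Egfr was at 6.0, 6.849 and 6.455 CPM without and at 4.968, 5.09 and 5.36 CPM with palmitate, a log2 difference of -0.33 (SE 0.132, interval -0.62 to -0.05, adjusted p = 0.208). The groups did not overlap for any of the 3.

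Tgfa behaved alike, at 353.8, 375.1 and 385.3 CPM without and at 320.3, 312.6 and 325.0 CPM with palmitate, with groups that did not overlap. Its log2 difference was -0.22 (SE 0.0605, interval -0.35 to -0.09, adjusted p = 0.0789). DESeq2 gave adjusted p-values of 0.0156 for Tgfa and 0.0449 for Erbb3. Without the smallest library, replicate 3 of the 3D cultures with palmitate, edgeR gave 0.0152 and 0.0384, and it then called 1901 of 12787 genes in place of 275. With the share of Rn45s as a covariate the values were 0.311 and 0.244. Over the 15 alternatives the adjusted p ran from 0.00485 to 0.311 for Tgfa and from 0.00662 to 0.244 for Erbb3, each called under 4 of them. The share of Rn45s was 3.14%, 5.38% and 1.81% in the 3 libraries with palmitate and 1.97%, 1.77% and 2.77% in those without.

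Hbegf was at 111.8, 109.7 and 105.0 CPM without and at 115.3, 115.8 and 118.8 CPM with palmitate. Although the groups did not overlap, the log2 difference was 0.1 (interval -0.02 to 0.22, adjusted p = 0.403). The other members overlapped between the groups. Areg had a log2 difference of 0.01 (interval -0.15 to 0.17), Btc of 0.07 (interval -0.1 to 0.25), Epgn of -0.01 (interval -0.49 to 0.46) and Errfi1 of 0.12 (interval -0.04 to 0.27). For Areg, Btc and Errfi1 the intervals leave room for changes of at most 0.27 on the log2 scale in either direction, and for Epgn, at its few counts, of 0.49.

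The remaining ligands and the fourth receptor were followed by their levels. Nrg1, the gene of neuregulin 1, which binds ERBB3 and ERBB4, was at 6.283, 5.298 and 5.587 CPM in 3D without palmitate and at 8.869, 10.64 and 11.33 CPM with it. All libraries with palmitate were above all those without, and the log2 fold change was 0.79 (SE 0.131, interval 0.51 to 1.07, adjusted p = 0.00667). The 2D cultures, which also received palmitate, were at 11.17, 12.56 and 10.83 CPM, and 3D against 2D gave -0.22 (adjusted p = 0.12). The change of Nrg1 with palmitate was called under 14 of 15 alternatives, with adjusted p from 1.57e-05 to 0.0645, the highest with the share of Rn45s as a covariate. Among the ErbB ligands and receptors it was the only one called with palmitate by edgeR with all 9 libraries, the filter on low counts and no correction, while Tgfa, Erbb3 and Erbb2 were called under some alternatives.

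Egf had means of 0.5036, 0.4883 and 0.6399 CPM in 3D without palmitate, 3D with palmitate and 2D, from 1 to 22 counts in a library. Nrg2 had 1.746, 1.979 and 2.439 CPM and Nrg4 2.042, 1.869 and 2.481 CPM in the same order. None of these 3 was called in either comparison. Nrg3 had at most 1 count in a library, and Erbb4, the gene of the fourth receptor, had 0 counts in every library, which allows a level of up to 0.0961 to 0.459 CPM depending on the library.

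Around the members, a list of 60 other genes of the pathway was followed, of which 57 passed the filter. In 3D against 2D, 37 were higher and 6 lower, or 75.4% called against 68.3% of all genes, and the median log2 fold change was 0.33. With palmitate in 3D, 3 were higher and 1 lower, or 7.02% called against 2.19%, with a median of 0.0. By role, the share called between the formats ran from 0% to 100%, in groups of 4 to 22 tested genes. Differences between the roles were not tested.

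Of the genes of ligand shedding, 3 of 4 tested were higher in 3D and 1 was lower, where 34.5% of all genes were higher and 33.9% lower. Adam10 and Adam17 encode the 2 main proteases that release these ligands, ADAM10 that of betacellulin and ADAM17 those of amphiregulin and TGF-alpha. Adam10 rose by 1.11 on the log2 scale (SE 0.0845, adjusted p = 3.34e-08), with means of 358.2 and 165.6 CPM in 3D and 2D, and Adam17 by 0.55 (SE 0.0932, adjusted p = 0.000114), with 156.1 and 106.1 CPM. Rhbdf1, which encodes iRhom1, a partner of ADAM17 in its transport to the surface, was lower in 3D, with a log2 fold change of -0.4 (SE 0.0948, adjusted p = 0.00172). Its paralog Rhbdf2 went the other way, with a log2 fold change of 0.23 (SE 0.0747, adjusted p = 0.0133). Rhbdf2 was added after its value was seen. Timp3, an inhibitor of these proteases, had 0 to 8 counts in a library and was not tested.

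Adaptors and kinases moved in both directions, with 11 of 22 higher and 5 lower, or 72.7% called against 68.3% of all genes. Their median was 0.16. The adaptor gene Shc1 was higher by 0.69 (SE 0.0604, adjusted p = 1.39e-07). The PI3K genes differed in sign: Pik3r1, of a regulatory subunit, gave 0.57 (adjusted p = 1.57e-05), and of the catalytic subunits Pik3ca gave 0.48 (adjusted p = 0.000131) and Pik3cb -0.58 (adjusted p = 5.56e-05). Pik3ca was added after its value was seen. Gab2, a docking protein that recruits PI3K, gave -0.68 (adjusted p = 0.000273). With the GC and length trend removed Pik3r1, Pik3cb and Gab2 were 0.2, -0.95 and -1.06, each in the same direction and still called.

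Among genes that limit the receptors or follow ERK activity, 0 were called lower in 3D. Of all genes, 34.5% were called higher and 33.9% lower. The lists were chosen with earlier results of these data known. In the group of receptor turnover and inhibitors 10 of 13 were called, all higher, or 76.9% against 68.3% of all genes, with a median of 0.61. Sh3kbp1, of an adaptor that acts with CBL in receptor uptake, rose by 1.3 (SE 0.0675, adjusted p = 5.88e-10) and Socs5, of a protein that promotes EGFR breakdown, by 1.22 (SE 0.0722, adjusted p = 2.36e-09). In the group of feedback targets of ERK 13 of 14 were called, all higher, or 92.9% against the same 68.3%, with a median of 0.74. Dusp6, the gene of a phosphatase that acts on ERK in the cytoplasm, was at 322.6 ± 13.85 CPM in 3D with palmitate and 82.8 ± 1.656 CPM in 2D, a log2 fold change of 1.96 (SE 0.0614, adjusted p = 2.78e-12). Dusp4, of a nuclear phosphatase of the same family, was at 138.6 ± 3.421 and 42.0 ± 2.125 CPM, a log2 fold change of 1.72 (SE 0.069, adjusted p = 3.59e-11). Dusp6 and Dusp4 were named for the smallest p in their group, whose log2 fold changes ran from -0.05 for Spred3 to 1.96. The values are RNA levels, and ERK activity was not measured in these files. A link between these genes and the ligands was not tested.

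With palmitate 2 of the 14 feedback genes were called, 1 higher and 1 lower, or 14.3% against 2.19% of all genes, and their median was -0.07. Dusp5, of a nuclear ERK phosphatase, was at 16.87, 18.03 and 16.54 CPM without and at 29.81, 22.94 and 21.9 CPM with palmitate, a log2 fold change of 0.58 (SE 0.11, adjusted p = 0.0157). Replicate 1 with palmitate was the highest, and without it the value was 0.39 (adjusted p = 0.0607). Spry1, of an inhibitor of receptor tyrosine kinase signalling, fell from 116.5, 110.7 and 112.0 CPM to 96.57, 90.1 and 81.78 CPM, a log2 fold change of -0.33 (SE 0.0697, adjusted p = 0.0273). Map2k1, the gene of the kinase MEK1, rose by 0.31 (SE 0.0627, adjusted p = 0.0217). Dusp5, Spry1 and Map2k1 were called under 9, 8 and 7 of 15 alternatives, with adjusted p up to 0.0884, 0.14 and 0.193. Leaving out any 1 library without palmitate gave adjusted p-values over 0.05 for all 3, and so did leaving out replicate 2 with palmitate for Spry1 and Map2k1 and replicate 1 for Map2k1.

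**Figure D4:**
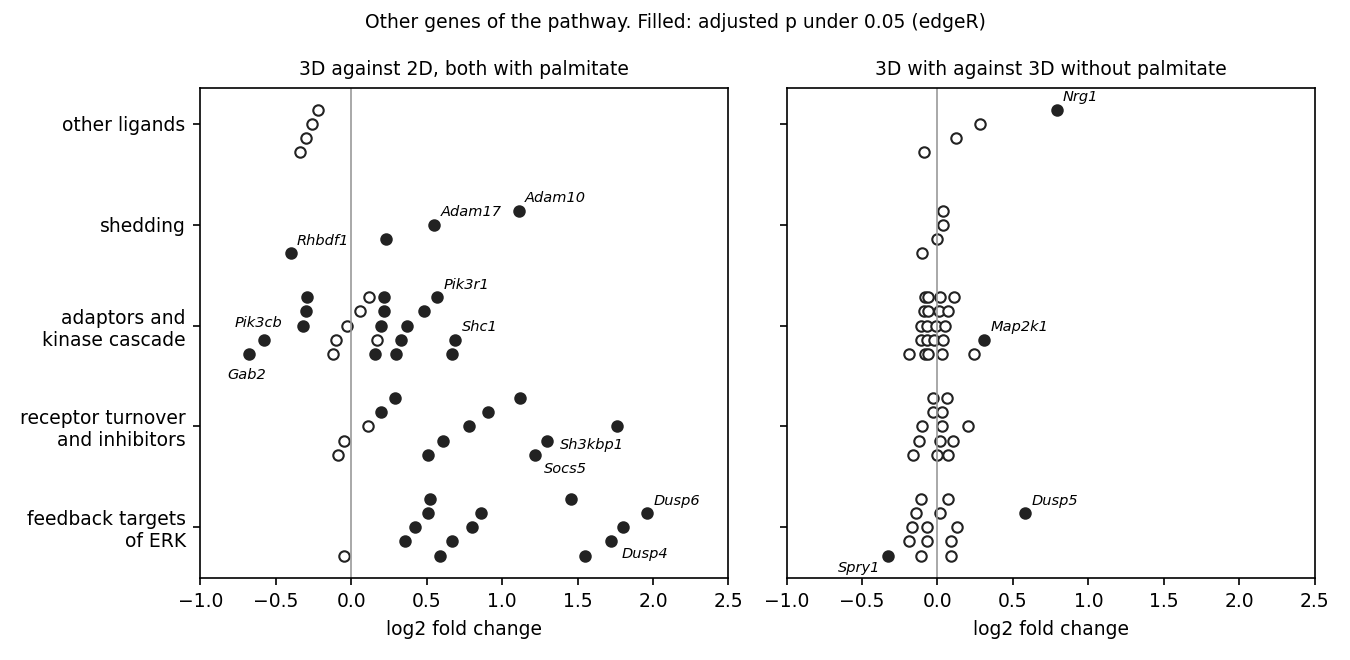
Log2 fold changes of the tested genes outside the members, by role, 3D against 2D on the left and palmitate against none in 3D on the right. Points are filled where the adjusted p was under 0.05. For each role, up to 2 higher and 2 lower called genes with the smallest p are named. On the left 13 of 14 feedback targets of ERK and 10 of 13 turnover genes are filled and lie above 0, and on the right Nrg1 lies farthest from 0, at 0.79.

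Over the 9 libraries, the ligand and the receptor with the highest level per kb were compared with the other 12566 tested genes by Pearson correlation of log2 CPM. For Areg the closest were Gclc (0.9987), Pitpnc1 (0.9984) and Fut8 (0.9983), and 1715 genes had a correlation above 0.95. For Erbb2 they were Cacfd1 (0.9963), Cic (0.9909) and Aatk (0.9862), and 73 genes were above 0.95. Areg was thus close to many genes over these libraries and Erbb2 to fewer. The points are 3 groups of 3 libraries and not 9 independent conditions, so these values only describe likeness.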

How the data were processed

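The authors deposited raw counts per gene for 9 libraries of 4T1 cells, without normalization. Per the study's methods, polyadenylated RNA was made into stranded libraries and sequenced as 50 bp single-end reads, which were cleaned with fastq-mcf, inspected with FastQC 0.11.9, aligned to GRCm38 with HISAT2 2.1.0 and counted with HTSeq-count, whose annotation release and strand setting are not given in the sources used here. Groups came from the sample labels.

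Testing used edgeR 4.0.16 under R 4.3.3: filterByExpr for low counts, TMM scaling, and 1 quasi-likelihood fit of the 9 libraries by condition. Adjusted p-values (Benjamini-Hochberg, over all tested genes) under 0.05 were called. SEs were derived from the fold change and its F statistic, and intervals are 95%. CPM are TMM-scaled. Lengths are those of the longest protein-coding GENCODE transcript, and 23376 genes of the table were matched to the reference by symbol and 678 by a synonym. Promoters are from RefSeq, GRCm38.p6. Genes with few counts are the least precise in the smallest library, of 6595514 counts.

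The members and the lists were chosen with earlier results of these data known. Named were all members, the other EGF ligands and Erbb4, for each role and comparison up to 2 higher and 2 lower called genes with the smallest p, and the 3 genes most like the highest ligand and receptor. Alternatives were DESeq2 1.42.0, RLE or library-size scaling, no filter or at least 10 counts in every library, a replicate block, the 2 compared groups alone, GC and length trends removed by splines with 4 degrees of freedom, the Rn45s share as a covariate, a minimum log2 fold change of 0.5 and each library left out. The fits were also run on simulated counts, whose outcome is not given here. Those counts had the same spread for every gene and group, unlike these libraries, so they cannot show how the fits behave here.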

Additional observations from a re-analysis of the deposited data

How the results depend on the processing

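In 3D against 2D, 6 or 7 members were called under every alternative. Of the 10 members 9 were tested, but 8 at a minimum of 10 counts in every library and 10 with no filter. After removal of the GC and length trend it was 7, with Egfr at -0.33 in place of Erbb2, and Hbegf was at 0.00. Epgn had no value at a minimum of 10 counts in every library. Of the other pathway genes, 26 in place of 43 were called at a minimum log2 fold change of 0.5. With palmitate, the members called were 2 by DESeq2, 2 with no filter on low counts, 3 (Tgfa, Erbb2 and Erbb3) after removal of the GC and length trend and 0 to 2 with a library left out, 2 being Tgfa and Erbb3 without replicate 3 of the 3D cultures with palmitate. The other pathway genes called with palmitate, 4 in the main analysis, were 2 at a minimum log2 fold change of 0.5, 0 with the Rn45s share as a covariate, 1 with the 2 groups alone and 1 to 10 with a library left out, 10 without the same replicate 3. Differences near 0 changed sign. For Areg with palmitate the log2 difference was -0.03 after removal of the GC and length trend, 0.00 at a minimum of 10 counts, -0.01 by library size or with no filter, and -0.07 to 0.06 with a library left out. For Epgn it was 0.00 by DESeq2, 0.04 after removal of the GC and length trend, 0.07 with the Rn45s share and -0.09 to 0.09 with a library left out. Over all genes, 275 were called with palmitate, against 395 by DESeq2, 44 with the Rn45s share, 77 with the 2 groups alone and 111 with the replicate block. The number was 617 with no filter, 993 after removal of the GC and length trend and 71 to 1901 with a library left out. The cause of these changes was not tested.

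Replicate numbers did not pair the libraries: same-numbered libraries of different groups deviated from their groups with correlations of -0.24 to 0.15 (9 pairs), against -0.17 to 0.28 (18 pairs) for others. With the number as a replicate block, the members called remained 7 and 0 in number, 2 of the other pathway genes were called with palmitate, and Epgn was at 0.01.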
